A study of Rattus norvegicus with 28 samples.

Results

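The 4 libraries labelled spinal_cord_3weeks were compared with the 4 labelled culture_condition, 8 of the 28 libraries of the series, chosen by these labels and by no measured value. Every library is described as rat neural progenitor cells (NPCs). The first group was exposed to spinal cord and carries a time of 3 weeks; its label names no injury, and it is called uninjured week 3 here. The second group stayed in culture. The remaining 20 libraries carry spinal cord or spinal cord injury labels at 2, 3 or 4 weeks and appear below where they show how uninjured week 3 differed from them. The sources give no strain, age or sex, no starting point for the weeks, no way of bringing cells and cord together, no step that removed cord tissue before RNA extraction, and do not state whether the 4 libraries of a group had separate sources. All p-values here thus cover the spread between these libraries, which may be technical.

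Neural progenitor cells are dividing precursors that can be expanded in culture and can give rise to neurons, astrocytes and oligodendrocytes. Spinal cord holds mature forms of those cell types together with microglia, blood vessels, meninges and ependyma, each with its own set of strongly expressed genes. RNA from a sample that holds both progenitors and cord is a mixture of them. In such bulk RNA, fewer cells of a type and less RNA per cell cannot be told apart, and RNA of cord tissue cannot be told apart from a change in the progenitors themselves.

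The counts are given by rat Ensembl gene identifier without gene names, and 0 of the 32545 identifiers matched the gene table used here. The progenitor identity of either group could therefore not be checked against its markers, genes could not be grouped by pathway or cell type, and no sequence is shown. Genes were instead grouped by how they differed, by their level and by their behaviour in the libraries that took no part in the comparison. The 2 identifiers with the largest change each way are followed library by library.

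Uninjured week 3 libraries held 2886760 to 6824050 counts, and culture libraries 5273204 to 6908508. Of the 32545 genes, 10942 had 0 counts in all 8 libraries, 8632 had too few counts to be tested, and 12971 were tested. The untested genes held at most 0.407% of the counts in any of the 8 libraries. No library repeated another: chi-square over degrees of freedom was 2.80 to 27.8 for pairs within uninjured week 3 and 5.36 to 7.44 for pairs within culture, where sampling noise alone gives 1. One library stood apart. Uninjured week 3 replicate 3 lay at -57.31 on the second principal component, against 12.49 to 24.76 for its 3 companions. It differed more than 2-fold from the median of those 3 for 7.09% of the 8881 genes with a group mean of at least 10 CPM (counts scaled to a common library total), against 0.754% to 1.20% for each of the other 3. Of those 630 genes, 480 were lower and 150 higher in replicate 3. Results that rest on it are given with and without it.

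The level of many genes differed between the uninjured week 3 libraries and the culture libraries. Of 12971 genes, 9124 or 70.3% differed from culture, 4572 higher (35.2%) and 4552 lower (35.1%) in uninjured week 3 (edgeR adjusted p under 0.05). A gene that passed this test is named called below. With all 28 libraries in 1 fit, 5305 of 13865 genes were called, and 4927 of the 9058 genes called above that were tested there kept their call and direction. Without uninjured week 3 replicate 3, 9928 of 13322 genes were called. The libraries of both groups did not overlap in CPM for 8460 genes or 65.2%, with 4153 higher (32%) and 4307 lower (33.2%) in uninjured week 3. The first principal component held 90.5% of the variance of the 8 libraries and separated uninjured week 3 (-117.8 to -103.0) from culture (110.5 to 113.5).

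The genes called higher had a median log2 fold change of 1.41 (quartiles 0.79 and 2.84). Their median level was 42.4 CPM in uninjured week 3 and 12.9 CPM in culture. The genes called lower had a median log2 fold change of -1.22 (quartiles -2.32 and -0.74), with a median level of 11.5 CPM in uninjured week 3 and 33.3 CPM in culture. The median was -0.006 for the 3847 genes not called and -0.004 for all tested genes. The numbers in both directions depend on the TMM scaling, which centres the fold changes: with upper quartile factors the median of all genes was -0.17, with 3937 genes called higher and 5236 lower. Differences of at least 2-fold were called for 5727 genes (44.2% of those tested), 2955 higher and 2772 lower. At least 4-fold differences numbered 1648 higher and 1337 lower, and at least 16-fold differences 776 higher and 528 lower. Of the genes called, 52 higher and 52 lower had 0 counts over the whole of the other group, so that their fitted fold change is not a measured size. With those genes set to the bound that a floor of 3 counts over the group allows, the genes called 16-fold or more apart numbered 776 higher and 522 lower.

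**Figure D1:**
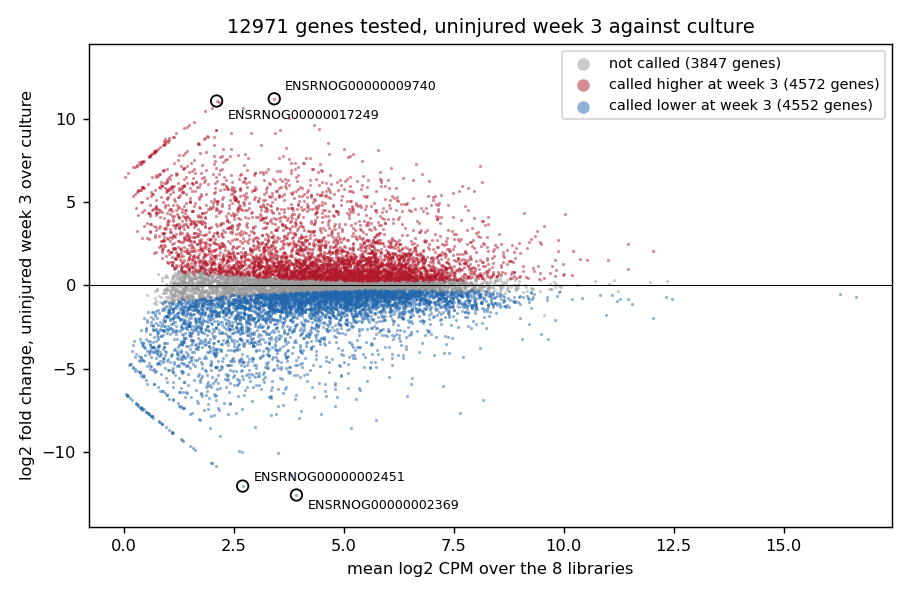
Each point is 1 of 12971 genes, with its mean log2 CPM over the 8 libraries on the x axis and its log2 fold change of uninjured week 3 over culture on the y axis. Red points (4572) were called higher and blue points (4552) lower at an adjusted p under 0.05, and circles mark the 4 identifiers followed in the text.

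Genes of every level took part. Among the most abundant genes, with a mean log2 CPM of at least 9, 40 were called higher (38.5%) and 37 lower (35.6%). Between a mean log2 CPM of 5 and 7, 1467 of 3845 genes were called higher (38.2%) and 1272 lower (33.1%). Between 1 and 3, 977 of 3048 were called higher (32.1%) and 1109 lower (36.4%). Over all tested genes these shares were 35.2% and 35.1%, a balance that depends on the scaling. In the 425 tested genes under a mean log2 CPM of 1, 169 were called higher and 224 lower, and the median absolute log2 fold change was 4.23, against 0.63 for genes between 5 and 7. A gene this low passed the count filter mostly by being high in 1 group, so its call and its large fold change are partly set by the filter.

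**Figure D2:**
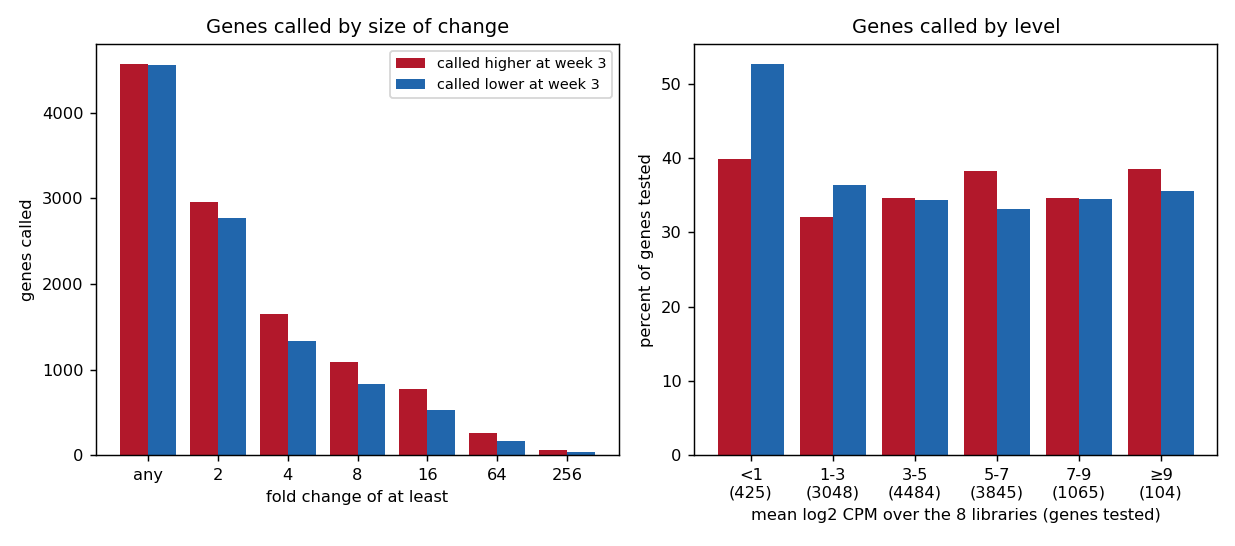
The left panel shows the number of genes called higher (red) and lower (blue) in uninjured week 3 than in culture with a fitted fold change of at least the value on the x axis; at 16-fold these were 776 higher and 528 lower genes. The right panel gives the percent of tested genes called each way in classes of mean log2 CPM, with the number of genes tested under each class; in the class from 5 to 7 these were 38.2% and 33.1%.

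Some genes were found in 1 group and not in the other. Genes with at least 10 counts in each uninjured week 3 library and 0 counts in all 4 culture libraries numbered 41, and all 41 were called. Their bounds over the group ran from at least 28.6-fold to at least 437-fold, higher in uninjured week 3, with a floor of 3 counts over the 23741368 counts of culture. Genes with 0 counts in all 4 uninjured week 3 libraries and at least 10 in each culture library numbered 55, of which 52 were called. Their bounds ran from at least 10.8-fold to at least 584-fold, lower in uninjured week 3, with a floor of 3 counts over the 16330067 counts of that group. Both rules ask for full separation of the same libraries, so these calls were nearly fixed in advance. Over all tested genes 70.3% were called. Without uninjured week 3 replicate 3, 49 and 73 genes met the rules. With a minimum of 20 counts there were 15 and 31, so these numbers depend on the minimum. They also depend on depth, which was not matched, with 16330067 counts in uninjured week 3 and 23741368 in culture. The minimum is harder to reach, and 0 counts easier, in the group with fewer counts. Both favour genes found in culture alone.

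The gene with the largest fitted rise was ENSRNOG00000009740. In uninjured week 3 replicates 1 to 4 it had 295, 294, 147 and 289 CPM (1998, 855, 475 and 909 counts). In culture replicate 1 had 0.344 CPM (2 counts) and the other 3 libraries 0 counts. The groups did not overlap, and replicate 3 was the low library of uninjured week 3. The log2 fold change was 11.21 ± 0.46 (SE; edgeR adjusted p = 1.31e-10), and 13.28 without culture replicate 1, the library with the 2 counts. Because culture held only 2 counts, the ratio of the summed counts per library total, 3080-fold, has a 95% exact interval of 852 to 25400 that covers counting error only.

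ENSRNOG00000017249 had 66.6, 62.9, 16.1 and 68.7 CPM in uninjured week 3 replicates 1 to 4 (451, 183, 52 and 216 counts) and 0 counts in all 4 culture libraries. Replicate 3 was again the lowest of its group. With the floor of 3 counts over the group, the gene was at least 437-fold higher in uninjured week 3 (edgeR adjusted p = 4.40e-05). It is the gene at the upper end of the range of bounds given above.

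ENSRNOG00000002369 had the largest fitted fall. It had 0.148 CPM (1 count) in uninjured week 3 replicate 1 and 0 counts in the other 3, against 548, 557, 581 and 459 CPM in culture replicates 1 to 4 (3190, 3020, 3307 and 3233 counts). The log2 fold change was -12.59 ± 0.32 (SE; edgeR adjusted p = 1.35e-11), and -14.32 without uninjured week 3 replicate 1, the library with the 1 count. The ratio of summed counts per library total was 8770-fold in favour of culture, with a 95% exact interval of 1570 to 346000 from that 1 count. ENSRNOG00000002451 had 0 counts in all 4 uninjured week 3 libraries, against 117.7, 99.9, 102.4 and 104.4 CPM in culture (685, 542, 583 and 736 counts). With the floor of 3 counts over the group it was at least 584-fold lower in uninjured week 3 (edgeR adjusted p = 2.04e-10). The 4 culture libraries spread over a narrow range for both genes, with means of 536 ± 53.5 CPM for the first and 106.1 ± 7.94 CPM for the second (SD, n = 4 each).

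In the 20 other libraries these 4 identifiers were set side by side as CPM of the library total, as a description, since the same uninjured week 3 and culture libraries had chosen them. ENSRNOG00000009740 ranged from 135 to 296 CPM in uninjured week 3. It ranged from 191 to 251 CPM in uninjured week 2, 74.1 to 220 CPM in uninjured week 4 and 166 to 408 CPM in injured week 2. In injured week 3 it was at 0.582 to 4.01 CPM and in injured week 4 at 0 to 2.07 CPM, against 0 to 0.333 CPM in culture. ENSRNOG00000017249 was high and low in the same groups, with 14.8 to 69.7 CPM in uninjured week 3 and 16.4 to 89.7 CPM in uninjured week 2, 12.2 to 33.0 CPM in uninjured week 4 and 16.9 to 106.5 CPM in injured week 2, against 0 to 0.553 CPM in injured week 3 and 0 counts in injured week 4 and culture. Both genes thus stood high in all uninjured groups and injured week 2, and near or at 0 in injured weeks 3 and 4 and culture. Week 2 libraries held at most 446331 counts, so their values rest on 6 to 137 counts per library for these 2 genes.

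The 2 genes that fell were high in culture alone, with intermediate values in injured week 3. ENSRNOG00000002369 was at 0 to 0.147 CPM in uninjured week 3, 0 to 1.57 CPM in uninjured week 4, 22.4 to 60.0 CPM in injured week 3 and 0.517 to 2.72 CPM in injured week 4, against 468 to 595 CPM in culture. ENSRNOG00000002451 was at 0 counts in uninjured week 3, 0.899 to 1.92 CPM in uninjured week 4, 0 to 12 CPM in injured week 3 and 0 to 0.545 CPM in injured week 4, against 102.8 to 114.1 CPM in culture. For both genes every culture library stood above every exposed library, the highest of which was 1 injured week 2 library with 71.0 CPM of the first gene from 6 counts.

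**Figure D3:**
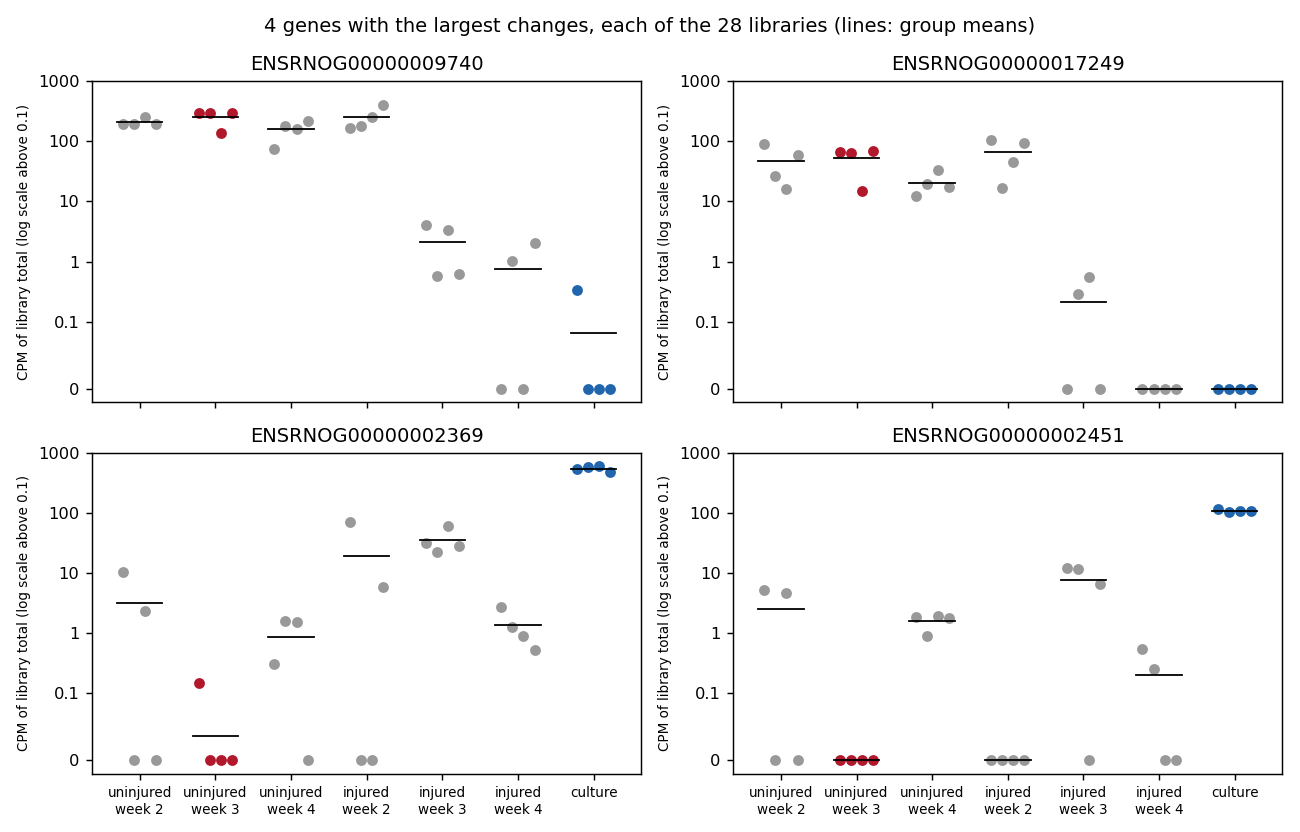
Each panel shows 1 identifier in the 28 libraries as CPM of the library total, on a y axis that is linear between 0 and 0.1 and logarithmic above; lines are group means. The upper genes stood at 135 to 296 and 14.8 to 69.7 CPM in uninjured week 3 (red) and at most 0.333 CPM in culture (blue), and the lower genes at most 0.147 CPM in uninjured week 3 and 102.8 to 595 CPM in culture.

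Genes that were called, did not overlap between the groups and had a mean log2 CPM of 2 or more numbered 6977 (53.8%). From either end of their log2 fold changes, 15 were followed as sets. The 15 highest had log2 fold changes of 8.58 to 11.21, with means of 42.8 to 472 CPM in uninjured week 3 and 0 to 1.13 CPM in culture. The 15 lowest had log2 fold changes of -12.59 to -7.78, with means of 0 to 3.01 CPM in uninjured week 3 and 33.1 to 843 CPM in culture. These values chose the genes and are not evidence about them.

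In libraries that took no part in the choice, the 15 highest summed to 1389 to 2380 CPM in uninjured week 4, 1909 to 5924 CPM in uninjured week 2 and 2256 to 3323 CPM in injured week 2, close to the 2133 to 3126 CPM of uninjured week 3. In injured week 3 they summed to 32.9 to 328 CPM and in injured week 4 to 125.8 to 341 CPM, against 3.16 to 4.55 CPM in culture. The 15 lowest summed to 4.85 to 9.04 CPM in uninjured week 3, 8.27 to 54.9 CPM in uninjured week 4, 149 to 218 CPM in injured week 4 and 493 to 526 CPM in injured week 3, against 3395 to 3784 CPM in culture. In both week 2 groups they summed to 58.3 to 189 CPM. The sums of injured weeks 3 and 4 thus stood between those of uninjured week 3 and culture for both sets. The median gene of the 15 highest was nearer culture, at 1.64 CPM in injured week 3 and 0.771 CPM in injured week 4. It was at 107.7 CPM in uninjured week 3 and 0.0924 CPM in culture. Since the genes were chosen as extremes of those 2 groups, a place between them is favoured for any other group.

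**Figure D4:**
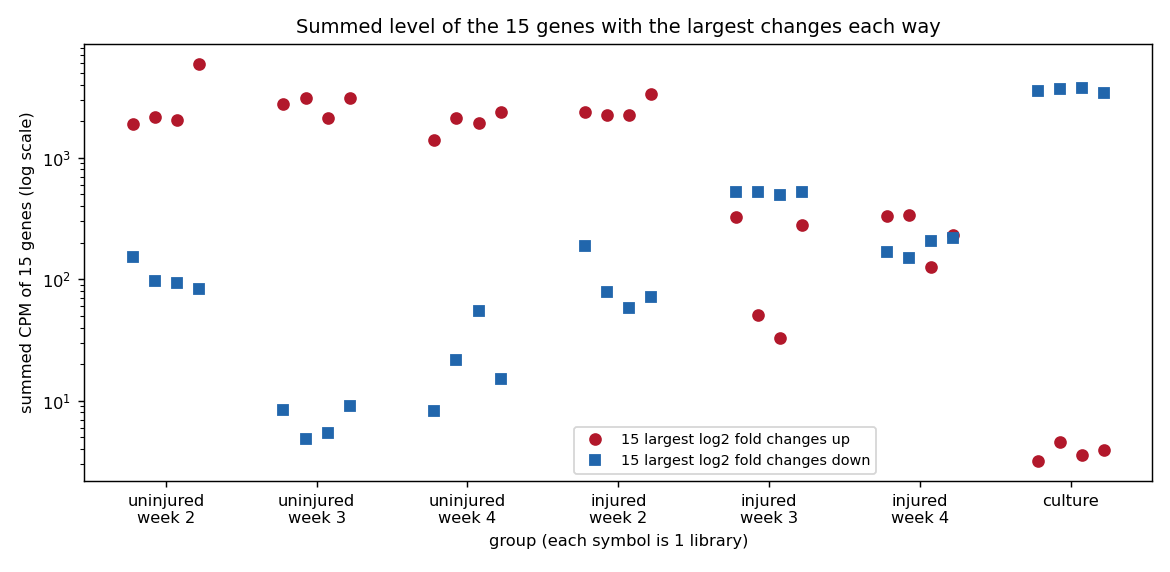
Summed CPM of the library total is shown on a logarithmic y axis for each of the 28 libraries. Red circles are the 15 genes with the largest fitted rise in uninjured week 3 against culture. Blue squares are the 15 with the largest fitted fall. The red set lies at 2133 to 3126 CPM in uninjured week 3 and 32.9 to 328 CPM in injured week 3, and the blue set at 3395 to 3784 CPM in culture.

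The genes called in either direction were then followed as a share of all counts. The 4572 genes called higher took 45.5% to 49.8% of the counts in uninjured week 3 libraries and 14.6% to 16.2% in culture. The 4552 genes called lower took 28.2% to 34.7% in uninjured week 3 and 61.6% to 64.8% in culture. These 8 libraries chose the genes, so their shares are a description. In uninjured week 4, which had no part in choosing them, the genes called higher took 39.8% to 45.7% and the genes called lower 34.3% to 38.8%. In injured week 3 these shares were 18.8% to 24.4% and 44.9% to 58.9%, and in injured week 4 they were 26.6% to 32.2% and 49.2% to 57.9%. Injured week 2 lay between uninjured week 4 and the later injured groups, with 34.4% to 38.8% and 39.6% to 41.7%. Uninjured week 2 spread more widely, with 27.3% to 38.9% and 37.3% to 55.7%, and overlapped injured week 4 in both shares. The injured week 3 library at the high end of its first range and the low end of its second was replicate 3, in which 11544 genes had counts, against 15292 to 15583 in its companions. Without it the ranges were 18.8% to 20.3% and 54.7% to 58.9%. Without uninjured week 3 replicate 3 in the choice of genes, the genes called higher took a mean of 52.3% in the other 3 uninjured week 3 libraries. That list was longer, with 4953 genes, and also took more of the culture libraries, 17.5% to 19.3%. On the list of 4572 genes, uninjured week 3 replicate 3 was at 46.6% and replicate 1 at 45.5%.

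One gene was the most abundant in all 8 libraries, and in 27 of the 28. It took 6.60% to 10.4% of the counts in uninjured week 3 and 12.6% to 15.1% in culture, and it was among the genes called lower (log2 fold change -0.68 ± 0.23, SE; edgeR adjusted p = 0.0159). With its counts set aside, the genes called higher took 49.6% to 53.3% of the rest in uninjured week 3 and 17.2% to 18.6% in culture. The genes called lower took 23.1% to 27.1% of the rest in uninjured week 3 and 56.1% to 58.6% in culture. The 10 most abundant genes of each library together took 18.7% ± 3.67 of its counts in uninjured week 3 and 27.4% ± 2.04 in culture (SD, n = 4 each). An exact permutation test gave p = 0.0286, two-sided, the smallest that 70 arrangements allow, and 0.0572 adjusted over the 2 library measures tested. Without uninjured week 3 replicate 3 the values were 17.1% ± 2.24 (SD, n = 3) and 27.4% ± 2.04 (SD, n = 4), with an adjusted permutation p of 0.0286.

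**Figure D5:**
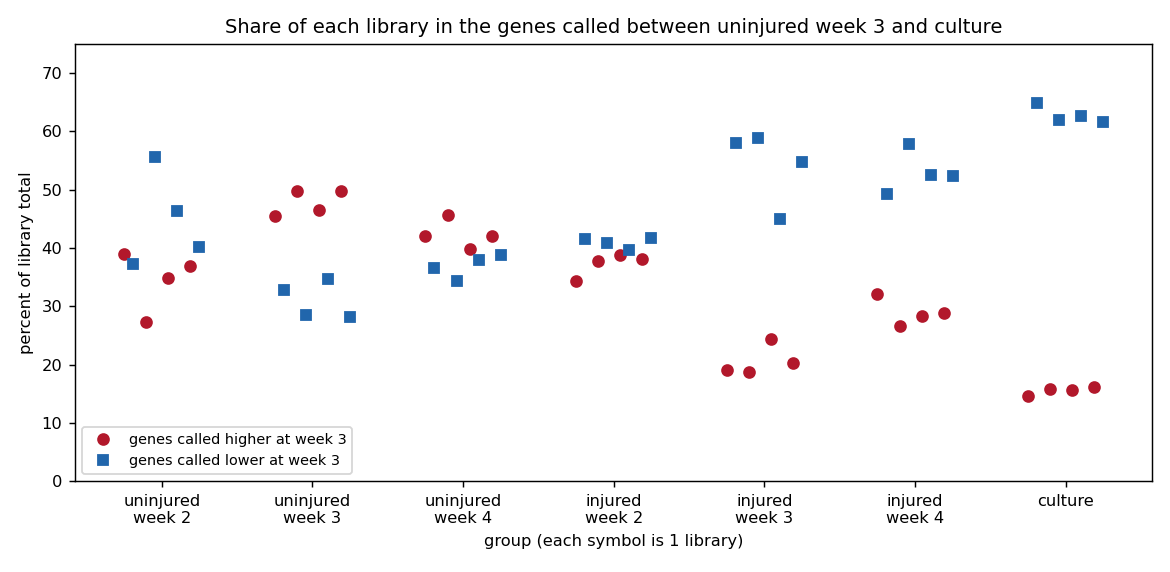
Percent of each library's total counts in the genes called higher (red circles) and lower (blue squares) in uninjured week 3 than in culture, for the 28 libraries of the 7 groups. The red shares are 45.5% to 49.8% in uninjured week 3 and 14.6% to 16.2% in culture, and the other 5 groups range from 18.8% to 45.7%.

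The number of genes found did not separate the groups over all libraries. With each library thinned to 2886760 counts, 15915 ± 388 genes had at least 1 count in uninjured week 3 and 15886 ± 93.0 in culture (SD, n = 4 each; exact permutation p = 0.886, two-sided, also adjusted). Uninjured week 3 replicate 3 had 15352 genes and its companions 16002 to 16240. Without it, the mean was 16102 ± 123.3 (SD, n = 3) in uninjured week 3 and 15886 ± 93.0 (SD, n = 4) in culture, and the exact permutation p was 0.0286, two-sided, the smallest that 35 arrangements allow. Whether uninjured week 3 held more genes than culture therefore rests on 1 library.

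Uninjured week 3 libraries varied more among themselves than culture libraries did. Over the 7369 genes with a mean log2 CPM of at least 4, the median SD of log2 CPM was 0.266 in uninjured week 3 and 0.114 in culture. Without replicate 3 it was 0.174 in uninjured week 3. This difference is a description and was not tested. The SDs were taken without thinning. Uninjured week 3 replicates 2 to 4 held 2886760 to 3522226 counts, against 5273204 to 6908508 in culture libraries. Counting error was therefore not matched between the groups. Genes differing more than 2-fold from the median of the other 3 libraries of their group made up 0.754% to 1.20% of 8881 in uninjured week 3 replicates 1, 2 and 4 and 0.0789% to 0.462% of 8870 in culture libraries. Over all 3136 genes called at least 2-fold higher without it, replicate 3 lay at a median of -0.14 log2 units from the mean of its companions, and over the 3017 called at least 2-fold lower at 0.13. Replicate 1 lay at -0.13 and 0.19 on the same scales, and replicates 2 and 4 at 0.04 and 0.08 for the higher genes and 0.00 and -0.04 for the lower genes.

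Far fewer genes differed between uninjured weeks 4 and 3 than between either week and culture. The difference between both weeks, which equals the difference between their effects against the shared culture libraries, was tested in 1 fit of 12 libraries. Of 13148 genes, 1782 or 13.6% differed, 874 higher (6.65%) and 908 lower (6.91%) in uninjured week 4 than in uninjured week 3 (edgeR adjusted p under 0.05), with differences of 2-fold or more in 417 higher and 99 lower genes. The count was 435 of 11726 genes when those 8 libraries were fitted without culture. It was 3495 without uninjured week 3 replicate 3, 613 without replicate 2 and 462 without replicate 4 of that group, and 1049 and 1022 without uninjured week 4 replicates 1 and 3, so this number depends on the libraries used. The identifiers followed here were chosen as extremes with the same uninjured week 3 libraries. That choice favours a difference between the weeks, so their p-values are a description. ENSRNOG00000002451 was higher in uninjured week 4 than in uninjured week 3, with 22 counts over the 4 libraries of uninjured week 4 and 0 in uninjured week 3, at least 8.419-fold with the floor of 3 counts (edgeR adjusted p = 0.00247). ENSRNOG00000002369 had 12 counts in uninjured week 4 and 1 in uninjured week 3 (edgeR adjusted p = 0.0401), a ratio of 13.78 with a 95% counting interval of 2.038 to 588.9. Its call was lost in 5 of the 8 fits that left out a library, with an adjusted p of up to 0.126. The 2 genes that rose against culture had log2 fold changes of -0.65 and -1.37 between the weeks (edgeR adjusted p = 0.139 and 0.0566); without uninjured week 3 replicate 3 these were -0.85 and -1.68 (edgeR adjusted p = 0.0287 and 0.000418). In a fit of its own, uninjured week 4 differed from culture for 8931 of 12923 genes (69.1%), 4436 higher (34.3%) and 4495 lower (34.8%), against the same 4 culture libraries that served for week 3.

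Injured and uninjured cord were compared at week 3. Injured week 3 differed from uninjured week 3 for 6623 of 12752 genes (51.9%), 3042 higher (23.9%) and 3581 lower (28.1%) in injured week 3 (edgeR, 12 libraries with culture, adjusted p under 0.05). With the 8 libraries of these groups alone, 5393 of 12008 genes differed. Without injured week 3 replicate 3, 8551 of 13031 genes differed (65.6%), 4246 higher (32.6%) and 4305 lower (33%). The identifiers that follow were chosen as extremes with the same uninjured week 3 libraries, so their p-values here are a description. ENSRNOG00000009740 and ENSRNOG00000017249 were lower in injured than in uninjured week 3, with log2 fold changes of -7.29 ± 0.78 and -8.22 ± 0.80 (SE; edgeR adjusted p = 1.96e-05 and 6.86e-05). With 1 library left out at a time, these ran from -8.03 to -7.0 for the first and from -8.81 to -7.89 for the second. The second rests on 3 counts in injured and 902 in uninjured week 3, which gives a ratio of 252.1 in favour of uninjured week 3 with a 95% counting interval of 85.98 to 1225. ENSRNOG00000002369 was higher in injured week 3, with 492 counts there and 1 in uninjured week 3 (log2 fold change 8.26 ± 0.43, SE, edgeR adjusted p = 1.51e-07). With 1 library left out at a time its log2 fold change ran from 8.03 to 9.95, the latter without uninjured week 3 replicate 1. Its ratio was 586.8 with a 95% counting interval of 104.8 to 23230. ENSRNOG00000002451, with 0 counts in all 4 uninjured week 3 libraries and in injured week 3 replicate 3, was at least 40.95-fold higher over the injured week 3 group with the floor of 3 counts (edgeR adjusted p = 0.0103). Against culture itself, injured week 3 without replicate 3 differed for 6558 of 12610 genes (52%), 3298 higher (26.2%) and 3260 lower (25.9%) in injured week 3. With all 4 libraries it differed for 3679 of 12133 genes (30.3%), 1798 higher (14.8%) and 1881 lower (15.5%).

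Injured against uninjured week 4 shares no library with uninjured week 3 against culture, and the genes called at week 3 were looked up there. That fit of 8 libraries, a comparison chosen after the data were seen, called 4903 of 12117 genes (40.5%), 2286 higher (18.9%) and 2617 lower (21.6%) in injured week 4. Of the 4572 genes higher in uninjured week 3 than in culture, 4404 were tested there, and 40.2% of these were lower and 6.72% higher in injured week 4 (median log2 fold change -0.40). Of the 4552 genes lower in uninjured week 3 than in culture, 3921 were tested, and 39.8% were higher and 6.12% lower in injured week 4 (median 0.44). Among the 3589 tested genes that had not differed between uninjured week 3 and culture, 10.1% were higher and 14.9% lower in injured week 4 (median -0.04). Seen from the other list, 67.6% of the genes lower in injured week 4 had been higher in uninjured week 3 than in culture, and 68.2% of those higher in injured week 4 had been lower. Of all 12117 genes tested at week 4, 4404 had been higher and 3921 lower in uninjured week 3 than in culture.

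Among fallen genes tested at week 4, the share higher after injury rose with each step in the week 3 difference. The tested part shrank with it, from 2168 of 2772 genes at 2-fold or more to 66 of 167 at 64-fold or more. For genes that had risen, the share lower after injury was largest at 64-fold or more. Of the 776 genes called at least 16-fold higher in uninjured week 3 than in culture, 719 were tested at week 4, and 49.5% were lower and 5.98% higher after injury. Of the 258 called at least 64-fold higher, 235 were tested and 68.9% were lower after injury. Of the 528 called at least 16-fold lower in uninjured week 3, only 276 had enough counts to be tested at week 4, and 75.7% of these were higher and 2.17% lower after injury. Of the 167 called at least 64-fold lower, 66 were tested, and 80.3% were higher and 0% lower in injured week 4. These classes use fitted fold changes, which are not measured sizes for genes with 0 counts in 1 group. With such genes set to the bounds that the floor of 3 counts allows, both classes at 64-fold or more held fewer genes. Shares at week 4 were not computed for the classes with bounds. A gene nearly silent in uninjured cord could pass the week 4 filter mainly by being present in injured week 4. The shares for fallen genes, and their growth with the size of the difference, are thus partly set by that filter. A risen gene nearly silent in injured week 4 could likewise pass mainly by being present in uninjured week 4. The shares lower after injury for risen genes are thus partly set by the filter too. ENSRNOG00000009740, with the largest fitted rise, was lower in injured than in uninjured week 4, with 12 counts against 2316. Its log2 fold change was -7.53 ± 0.60 (SE, edgeR adjusted p = 1.08e-06). With 1 library left out at a time its log2 fold change ran from -8.59 to -7.04. ENSRNOG00000017249 had 0 counts in injured week 4 and 281 in uninjured week 4, at least 105.2-fold lower in injured week 4 with the floor of 3 counts (edgeR adjusted p = 6.08e-07). The 2 followed genes that had fallen had too few counts to be tested at week 4 and are given by their counts. ENSRNOG00000002451 had 3 counts in injured and 22 in uninjured week 4, 8.24-fold lower in injured week 4 with a 95% counting interval of 2.474 to 42.98. ENSRNOG00000002369 had 21 counts in injured and 12 in uninjured week 4, a ratio of 1.56 with a 95% counting interval of 0.732 to 3.475.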

How the data were processed

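Per the labels' protocols, RNA was isolated with Trizol and on-column DNase digestion, and a stranded kit for minute amounts of total RNA made the libraries. The values are whole-number counts per gene as the authors deposited them, not normalized. The submitters' processing notes name the aligner STAR 2.5.1 and the counter featureCounts 1.5.1 among other tools, with no roles, and GRCm38, a mouse build, although the gene identifiers are rat ones. Strand setting and the treatment of duplicates and shared reads are not stated, so overlapping genes and near-identical copies are uncertain. Intervals and floors cover counting error only, since reads without molecular identifiers are not independent molecules.

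The 8 libraries were fitted alone with edgeR 4.0.16, under R 4.3.3 (robust quasi-likelihood F test, TMM factors of 0.922 to 1.03, filterByExpr, 6 residual degrees of freedom, biological coefficient of variation 17.3%), with Benjamini-Hochberg adjustment over all genes tested and calls at an adjusted p under 0.05. Uninjured week 4 and injured week 3 were each compared with uninjured week 3 in fits of 12 libraries that included culture. A standard error is the log2 fold change over the square root of F. CPM use TMM-scaled totals unless given as CPM of the library total, and log2 CPM a prior count of 2. Log2 fold changes are exposed over culture, uninjured week 4 over week 3, or injured over uninjured. The functions were tested on simulated counts in which far fewer genes changed, and by smaller folds, than here. That simulation does not test the scaling or the filter under changes this wide. Alternatives were RLE or upper quartile factors, limma 3.58.1 with voom, DESeq2 1.42.0, other filters and depths, and left-out libraries. Replicate numbers follow the order of deposition.

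The comparison, lists and rules were chosen with earlier results of these data known. The 46 gene lists, the genes meant to be named in any case and the 15 named genes each way needed symbols and were not run. In their place 2 identifiers each way are printed, those with the largest log2 fold changes among called genes whose groups did not overlap and whose mean log2 CPM was 2 or more.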

Additional observations from a re-analysis of the deposited data

Results flagged for a closer look

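Dixon's ratio of gap to range set 1 library apart in 6 of 20 groups of 4 values without tied zeros, where chance gives about 1 in 20. It concerns uninjured week 3 replicate 3 in 3 of these: the ratio was 0.979 for the CPM of ENSRNOG00000009740 and 0.885 for that of ENSRNOG00000017249, in both of which this library was the lowest of its group, and 0.850 for its place on the second principal component. Uninjured week 3 replicate 1 had the highest total count of its group, with a ratio of 0.839. Culture replicate 1 had the highest share of counts in the most abundant gene (ratio 0.920) and in the 10 most abundant genes (ratio 0.884). In another 2 groups all values were 0 and gave no ratio. The ratio was 1 for ENSRNOG00000009740 in culture and for ENSRNOG00000002369 in uninjured week 3, where 1 library held 2 counts or 1 count and the other 3 held 0, which fixes it at 1.

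The effect of uninjured week 3 against culture differed from that of another group for all 4 identifiers, by a test of the difference itself (edgeR adjusted p under 0.05). The uninjured week 3 libraries in this test had also chosen the 4 identifiers as extremes. That choice favours a difference from another group, so these p-values are a description. Between injured and uninjured week 3 the log2 fold changes were -7.29 for ENSRNOG00000009740, -8.22 for ENSRNOG00000017249, 8.26 for ENSRNOG00000002369 and 8.09 for ENSRNOG00000002451. Between uninjured weeks 4 and 3 they were 3.33 for ENSRNOG00000002369 and 5.89 for ENSRNOG00000002451. Uninjured week 3 held 0 counts of ENSRNOG00000002451 and 1 of ENSRNOG00000002369, so the fitted values of these genes are not measured sizes.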

How the results depend on the processing

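The count of genes called between uninjured week 3 and culture stayed within 1.5 times of 9124 under RLE factors, upper quartile factors, DESeq2, limma voom, both other filters, thinning to equal depth (8171), the test against a fold change of 1.5 (6258) and each left-out library (8759 to 9928). With all 28 libraries in 1 fit it was 5305, with 2541 higher and 2764 lower; the cause was not tested. No gene called in the 8 libraries was called in the opposite direction under any of these alternatives. Upper quartile factors moved the median log2 fold change of all genes to -0.17 and the share of higher calls to 42.9% from 50.1%, and the fit of all libraries moved that median to -0.18. Against culture, all 4 identifiers kept their direction and their call under every alternative that was run. Uninjured week 4 against week 3 was the least stable count, at 435 when the 8 libraries were fitted without culture and 462 to 3495 without 1 library. Without 1 library, injured against uninjured week 3 gave 6199 to 8551 genes and injured against uninjured week 4 gave 4338 to 5113. A difference in the number of genes detected at equal depth, 29.2 genes over all 8 libraries, was 217 without uninjured week 3 replicate 3. The gene lists and the fit without mitochondrial and red blood cell genes were not run, since the identifiers carry no symbols. No paired analysis was possible because the labels give no replicate numbers.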
